A study of Mus musculus with 8 samples.

Results

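CD antigens are cell surface molecules that carry a number in the cluster of differentiation system. The group described here holds every gene of the deposited probe table whose symbol is Cd followed by that number, with at most 1 further letter and 1 further digit. This name rule took 77 of the 18138 gene symbols of the table and 125 of its 25697 probes, and it used no measured value. Of these 77 symbols, 75 are current symbols of the mouse RefSeq annotation of GRCm38.p6, and the remaining pair are synonyms there, Cd97 of Adgre5 and Cd244 of Cd244a. The rule also takes Cd5l, which encodes a secreted protein, and Cd99l2, a relative of Cd99, and it misses CD antigens whose symbol is another word.

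Smooth muscle cells grown out of explants from several mouse aortas were transfected with a mimetic of moR-21 (3 samples) or with a scrambled control oligonucleotide (3 samples). Both agents were given at 5 nM with RNAiMAX in medium with charcoal-stripped serum, and RNA was collected after 48 h and hybridized to Illumina mouse arrays. The 6 samples took 8 arrays, because control sample 1 and moR-21 sample 3 each have a pair, labelled replicate A and B. The labels do not say whether each pair shared the same RNA. The methods name wild type C57/Bl6 mice for the study as a whole, the age and sex of the mice that gave these cells are not given in the sources used here, and nothing in them says that the 3 samples of a treatment came from separate cultures, so the p-values measure the spread between these samples alone, which may be technical.

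Most CD antigens were first defined with antibodies on blood cells, where they mark lineages such as T cells, B cells and monocytes. Many are carried by other tissues as well. Tetraspanins organise membrane proteins into patches, complement regulators shield cells from lysis, and adhesion receptors and sialomucins connect cells with matrix and with each other. Cd164 encodes such a sialomucin, a heavily glycosylated protein of the endosomes, the lysosomes and the cell surface, known from blood progenitors and from muscle cells. A microRNA-offset RNA such as moR-21 lies next to a microRNA in the primary transcript, here on the 5′ side of miR-21. The study counted Cd164 among the candidate targets of moR-21, by seed-match prediction and by its fall in these same samples. Its value below is therefore no independent evidence of that relation. The study also reported less Cd164 mRNA after moR-21 by RT-qPCR in independent experiments, which were not examined here.

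The sequences that set the treatment apart from miR-21 are shown because the study read them by their seeds, nucleotides 2 to 8 of the small RNA. All are RefSeq sequences of the mouse build GRCm38.p6 on the minus strand of chromosome 11, within the 92-base hairpin of the gene Mir21a. The first is the hairpin's 5′ arm before miR-21a-5p (chr11:86584142-86584158), which holds moR-21 from its base 2 on, and the second is the mature miR-21a-5p (chr11:86584120-86584141). Capitals mark bases 2 to 8 of each small RNA.
moR-21 arm of Mir21a: UGUACCAccuugucgga
miR-21a-5p: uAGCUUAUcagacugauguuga
The seeds share the same base at 1 of 7 positions, and the moR-21 seed occurs 0 times in miR-21a-5p. The probes of the array were not matched to these seeds.

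The arrays were alike in depth of detection. Probes with a detection p-value under 0.01, meaning that few negative control beads were as bright, numbered 10290 to 10508 on the control arrays and 10285 to 10512 on those of moR-21. The number of samples, and not of arrays or probes, limits the precision. The SD of the log2 differences between arrays was 0.0914 and 0.103 for arrays of the same sample, 0.100 to 0.119 for samples of the same treatment and 0.224 to 0.245 across treatments. Samples of the same treatment thus lay almost as close as repeat arrays of 1 sample.

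Most of the CD antigens were not detected in these cells. At a detection p-value under 0.01, 20 of the 77 antigens had a probe detected on all 8 arrays, 4 on some arrays (Cd59b, Cd80, Cd93 and Cd247) and 53 on none. With a probe detected on at least 1 array, the antigens came to 31.2% of their symbols, against 48.1% of all symbols of the table. The 92 probes detected on no array had mean log2 signals between 6.53 and 6.75, and the 29 detected on all arrays lay between 7.00 and 12.97. Signals of different probes depend on the probe as well as on the mRNA, so the antigens are not ranked by them.

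The antigens of blood lineages were nearly all undetected at a detection p-value under 0.01. At one under 0.05, the brightest Cd226 probe was detected on 5 of 8 arrays and Cd68 on 3 of 8. Of the 20 lymphocyte antigens on the array, 19 were detected on no array, among them Cd3d, Cd3e, Cd3g, Cd4 and Cd8a of T cells and Cd22 and Cd79b of B cells. The exception was Cd247, the zeta chain of the T cell receptor, with 1 of its 3 probes detected on 3 of 8 arrays. At this probe every control array was brighter than every moR-21 array. Of the 13 myeloid antigens, 12 were detected on no array, among them Cd68, Cd163 and Cd33. The exception was Cd14, the coreceptor for lipopolysaccharide, which is known from macrophages and was detected on all 8 arrays. Of 12 macrophage and leukocyte marker symbols on the array, 8 were detected on no array (C1qa, C1qb, Cd68, Emr1, Fcgr1, Itgam, Lyzs and Ptprc). Csf1r was detected on 6 of 8 arrays, and Cd14, Lyz and Lyz2 on all 8. Lyz, Lyz2 and Lyzs are lysozyme symbols that the list took as alternative names of the same marker.

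Other roles were better represented. Of the 7 tetraspanins, 5 were detected on all arrays (Cd9, Cd63, Cd81, Cd82 and Cd151), while Cd37 and Cd53, which are known from leukocytes, were not detected. Of 13 sialomucins and adhesion molecules, 6 were detected on all arrays (Cd44, Cd47, Cd97, Cd151, Cd164 and Cd248), Cd93 on some and 6 on none, including Cd34 and Cd200. Of the 5 antigens of the complement list, Cd55 and Cd59a were detected on all arrays, Cd59b and Cd93 on some and Cd46 on none. Cd93 also stands in the adhesion list, and its place among complement regulators is that of the list alone. Cd59a and Cd59b are near copies of each other, and how far their probes share signal is uncertain. Of 9 molecules of antigen presentation and costimulation, Cd1d1, Cd74, Cd274 and Cd276 were detected on all arrays and Cd80 on some, while Cd40, Cd83, Cd86 and Cd1d2 were not. The receptors Cd109 and Cd320 were detected on all arrays, and the scavenger receptor Cd36 was detected on none. An array that does not detect a probe gives a bound on its signal and does not show that the gene is silent.

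**Figure D1:**
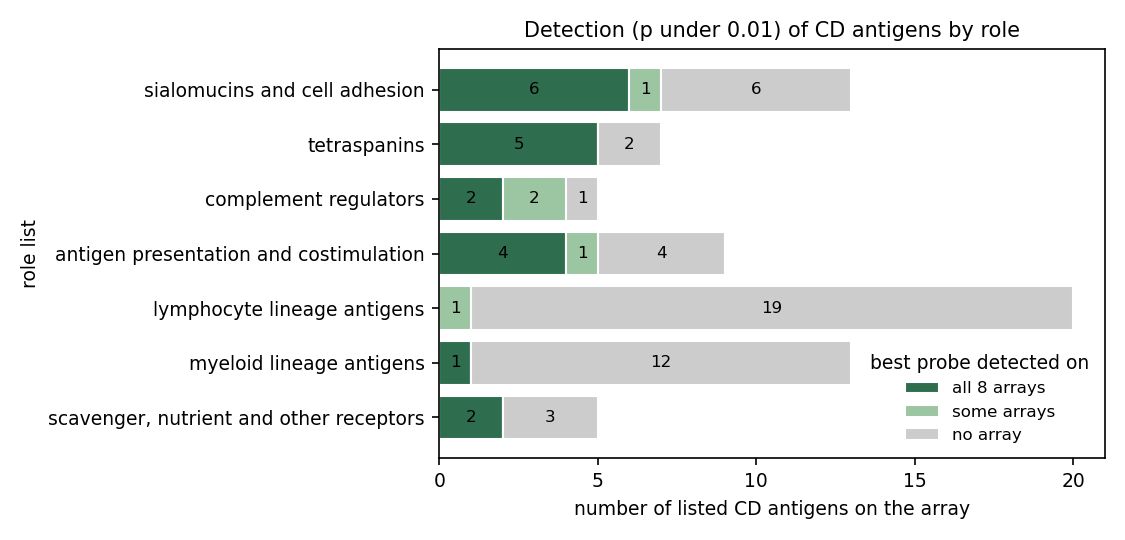
Number of listed CD antigens on the array (x axis) by role (y axis), split by whether the best probe had a detection p-value under 0.01 on all 8 arrays, on some or on none. Lymphocyte and myeloid antigens were undetected but for 1 gene each, whereas 5 of 7 tetraspanins were detected on all arrays; Cd33, Cd93 and Cd151 each stand in a pair of lists.

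The strongest change among the antigens was that of Cd164. Its only probe, ILMN_1246611, was detected on all 8 arrays. Its log2 signal was 11.61, 11.44 and 11.59 in control samples 1, 2 and 3, and 10.24, 10.19 and 10.32 in moR-21 samples 1, 2 and 3. Every moR-21 sample was thus lower than every control sample, with a wide gap between the groups. On the repeat arrays it read 11.63 and 11.59 for control sample 1, and 10.37 and 10.27 for moR-21 sample 3, so that repeats of 1 sample stayed close together. Cd164 fell by 1.298 on the log2 scale (standard error 0.056, 95% interval −1.42 to −1.18, limma adjusted p = 9.80e-10), which is 2.46-fold lower and leaves 40.7% of the control signal. Among the 8727 genes tested, each at its brightest probe, it held rank 15 from the largest fall. The mean of the control samples was 11.55 ± 0.093 (SD, n = 3), and that after moR-21 was 10.25 ± 0.066 (SD, n = 3). The arrays measured the amount of mRNA and neither its decay nor the protein.

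A probe was called changed at a fold change over 1.3 in either direction with a limma adjusted p under 0.002, the cutoffs of the study. By these cutoffs 6 of the 33 detected CD antigen probes fell and 1 rose, against 3.85% of all 11651 tested probes that fell and 3.12% that rose. In either direction 21.2% of the CD antigen probes were called, against 6.96% of all tested probes. Cd164 is counted here and among the genes below, although its fall in these same samples was known when the group was chosen. At the level of genes, read at the brightest probe, 4 of 24 antigens fell (Cd164, Cd74, Cd55 and Cd97) and 1 rose (Cd44), against 4.38% and 3.41% of the 8727 genes tested. The moR-21 and control samples did not overlap in 21 of the 33 probes, against 45.0% of all tested probes, with 15 probes below and 6 above. The median log2 fold change was −0.07 over the 33 probes and 0.00 over all tested probes (0.0048). At an unadjusted p under 0.05, 13 of the 33 probes were lower and 7 higher, against 2310 lower and 2609 higher of all 11651, so that the share of higher probes was close to that of all probes. Probes of the same gene share their mRNA and are not independent. Cd247, counted among the lower probes, was brighter on every control array than on any moR-21 array. It was detected on 3 arrays only, so it passed the detection filter through the group where it was higher.

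**Figure D2:**
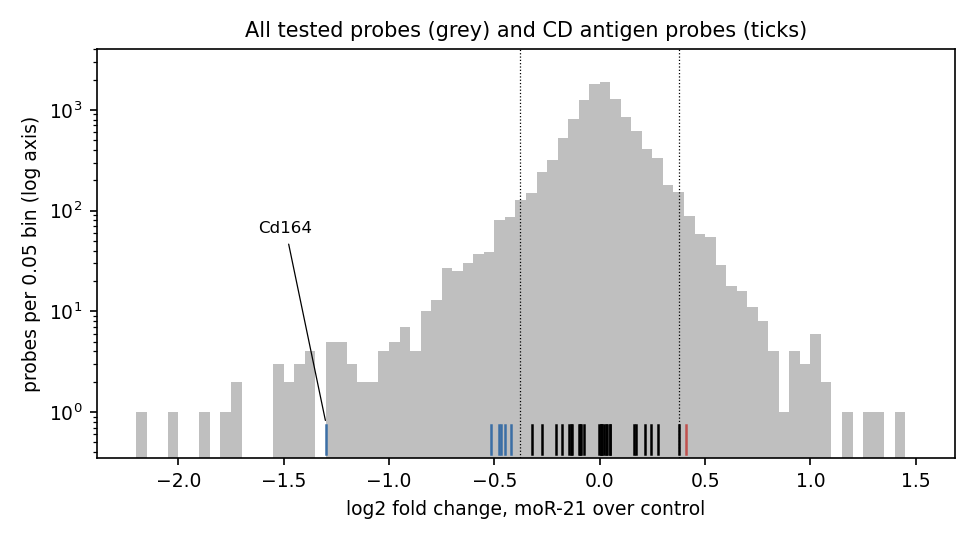
Log2 fold change of moR-21 over control (x axis) for the 11651 tested probes (grey bars, number per bin on a log axis) and for the 33 CD antigen probes (ticks, blue where called lower, red where called higher, black where not called). Cd164 lies at −1.298, apart from the other antigens, and dotted lines mark a fold change of 1.3.

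Cd97 and Cd55, which encode a known receptor and its ligand, both fell. Cd97 encodes an adhesion receptor with a G protein-coupled domain, and Cd55 the decay-accelerating factor that restrains complement. The brightest Cd97 probe, ILMN_2694175, had log2 signals of 7.81, 7.88 and 7.83 in the control samples and 7.49, 7.39 and 7.38 in the moR-21 samples. It fell by 0.42 on the log2 scale (standard error 0.048, limma adjusted p = 1.48e-05). A second probe, ILMN_2694170, also fell, by 0.48 (limma adjusted p = 6.33e-06), while the dimmest, ILMN_2814168, was at −0.18 (limma adjusted p = 0.00820) and was not called. In all 3 probes the moR-21 samples lay below the control samples.

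The Cd55 probe, ILMN_1248714, read 7.42, 7.496 and 7.49 in the control samples and 6.92, 7.06 and 7.09 in the moR-21 samples, on the log2 scale. Cd55 fell by 0.45 (standard error 0.053, limma adjusted p = 1.86e-05), and the groups did not overlap. The other complement regulator detected on all arrays, Cd59a, which blocks the membrane attack complex, was not called, at a log2 fold change of −0.14 with a limma adjusted p of 0.0489. Cd59b had one of 0.03 and Cd93 one of 0.02, in both of which the groups overlapped.

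Cd74, the invariant chain that guides class II histocompatibility molecules and that also serves as a receptor for the cytokine MIF, fell at both of its probes. The log2 signals of the brighter one, ILMN_3089584, were 8.03, 8.05 and 7.88 in the control samples and 7.42, 7.55 and 7.44 in the moR-21 samples, without overlap. It fell by 0.52 (standard error 0.056, limma adjusted p = 8.90e-06), and the other probe, ILMN_1221817, fell by 0.47 (limma adjusted p = 3.03e-05). The table assigns these probes to different transcript variants.

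The only antigen of this group called higher was Cd44, the main receptor for hyaluronan. Its probe ILMN_3114585 had log2 signals of 7.58, 7.497 and 7.37 in the control samples and 7.86, 7.92 and 7.90 in the moR-21 samples. Control sample 3 was the lowest, and all moR-21 samples were higher than all control samples. Cd44 rose 1.33-fold, or by 0.41 on the log2 scale (standard error 0.055), with a limma adjusted p of 5.71e-05. Without control sample 3 it was 0.35 and no longer called. The other 5 of its 6 probes were detected on no array, so the rise rests on 1 probe.

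Cd1d1, which presents lipid antigens to natural killer T cells, lay at the border of the fold-change cutoff. Its log2 signals were 7.49, 7.39 and 7.46 in the control samples and 7.75, 7.82 and 7.90 in the moR-21 samples, so that all moR-21 samples were higher. The fold change of 1.298 fell just short of 1.3, with a limma adjusted p of 6.74e-05. Under 6 of 16 other settings, it was called higher, with a log2 fold change of 0.65 with normexp background correction against 0.376 without, and of 0.39 with array A alone.

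The called antigens other than Cd164 were dim, and their fold changes grew when background was subtracted. With normexp background correction the log2 fold change was −1.01 for Cd55, −0.85 for Cd74, −0.73 for Cd97 and 0.69 for Cd44, each more than 1.5 times its uncorrected size, whereas that of Cd164 was −1.36. The direction was the same in each.

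**Figure D3:**
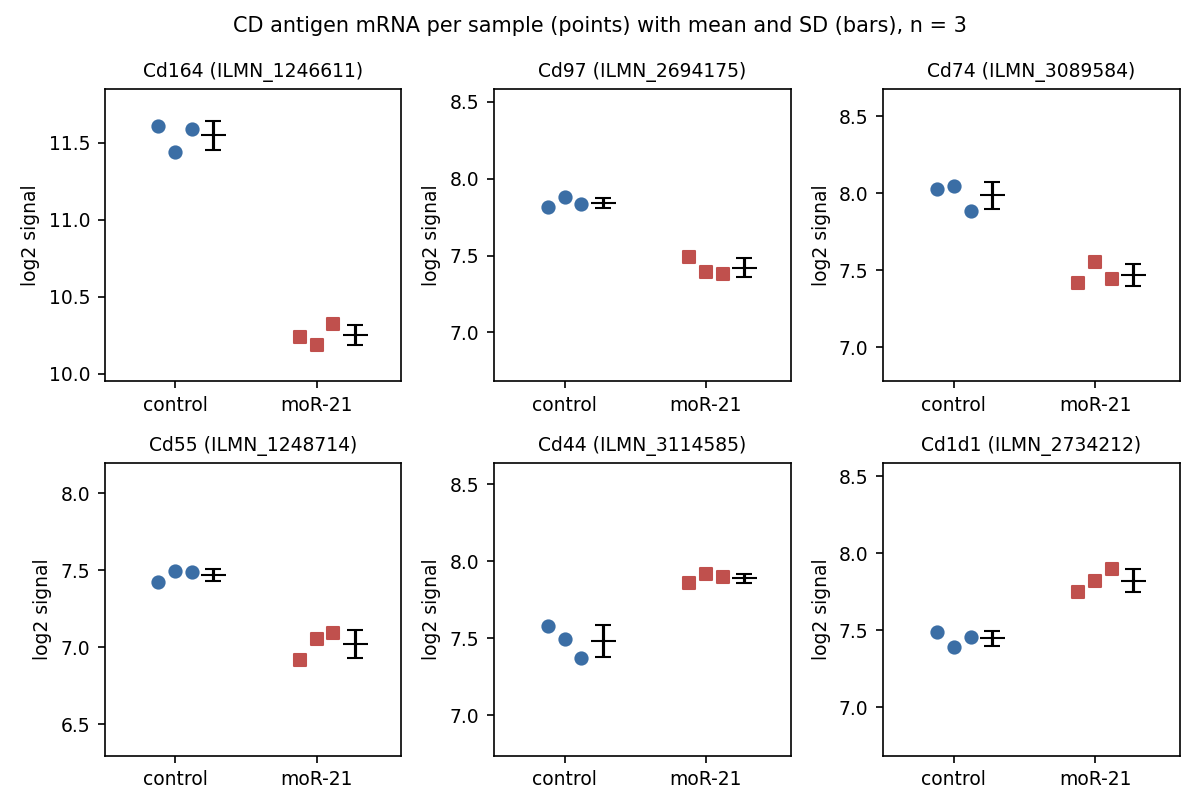
Log2 signal (y axis, each panel spanning an equal range) of Cd164, Cd97, Cd74, Cd55, Cd44 and Cd1d1 at the brightest probe in the 3 control samples (blue circles) and 3 moR-21 samples (red squares), with the mean and SD as black bars. Cd164 shows the widest gap, and in none of the 6 genes do the groups overlap.

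Of the 5 detected tetraspanins 0 were called by limma, against 7.79% of all genes tested, and 2 had an unadjusted p under 0.05, against 3888 of 8727 genes, so neither count sets them apart. Cd82 had log2 signals of 8.75, 8.86 and 8.71 in the control samples and 8.58, 8.62 and 8.51 in the moR-21 samples, which gave a log2 difference of −0.21 (limma adjusted p = 0.00708). Cd81, a partner of immunoglobulin-like receptors, read 13.02, 13.02 and 13.04 against 12.84, 12.88 and 12.91, which gave a log2 difference of −0.15 (limma adjusted p = 0.0202). In both genes all moR-21 samples were lower than all control samples. The log2 fold change was −0.07 for Cd63, a tetraspanin of endosomes and exosomes, 0.00 for Cd9 (0.0046) and 0.05 for Cd151, which binds laminin-binding integrins. Their 95% intervals were −0.17 to 0.02, −0.12 to 0.13 and −0.05 to 0.16, so a fold change of 1.3 lay outside each. That of Cd63 changed sign under median scaling, and that of Cd9 under median scaling and cyclic loess.

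Among the other adhesion molecules, Cd248 and Cd47 were not called. Cd248, or endosialin, is known from pericytes and fibroblasts. Its brighter probe read 10.89, 10.96 and 10.72 in the control samples and 10.52, 10.54 and 10.55 in the moR-21 samples, and the log2 difference of −0.32 (limma adjusted p = 6.28e-04) was short of the fold-change cutoff. It was called without control sample 3, at −0.39, and its dimmer probe gave −0.09 with overlapping groups. Cd47, which keeps macrophages from engulfing a cell, had a log2 fold change of −0.09 (95% interval −0.22 to 0.04), and its groups overlapped.

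Cd14, Cd274, Cd276, Cd80 and Cd247 were not called. Cd14 had log2 signals of 10.46, 10.44 and 10.39 in the control samples and 10.14, 10.17 and 10.16 in the moR-21 samples. All moR-21 samples were lower, and the log2 fold change was −0.27 (95% interval −0.37 to −0.18, limma adjusted p = 3.38e-04). The checkpoint ligand Cd274, known as PD-L1, read 7.68, 7.71 and 7.54 against 8.11, 7.76 and 7.91, a log2 difference of 0.28 (limma adjusted p = 0.0110), with moR-21 sample 2 close to the control samples. With normexp its log2 difference was 0.44, and it was not called. Its relative Cd276 was at −0.10 on the same scale (limma adjusted p = 0.141). Cd80, a ligand of Cd28, and Cd247 were near background, with log2 fold changes of 0.00 (0.0045) and −0.13. Cd247 was called lower only with normexp background correction, among 15 other settings (log2 fold change −0.47).

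The remaining detected antigens were not called. Cd109, a membrane protein that binds transforming growth factor beta, read 8.60, 8.57 and 8.55 in the control samples and 8.84, 8.84 and 8.76 in the moR-21 samples, a log2 difference of 0.24 (limma adjusted p = 0.00107). Its dimmer detected probe gave 0.17 with overlapping groups. Cd320, the receptor for cobalamin-loaded transcobalamin, had a log2 fold change of 0.05 and Cd99l2 one of 0.01, with overlap in each, and control sample 3 was the lowest for Cd99l2 (8.14, against 8.32 to 8.48 in the other 5 samples).

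**Figure D4:**
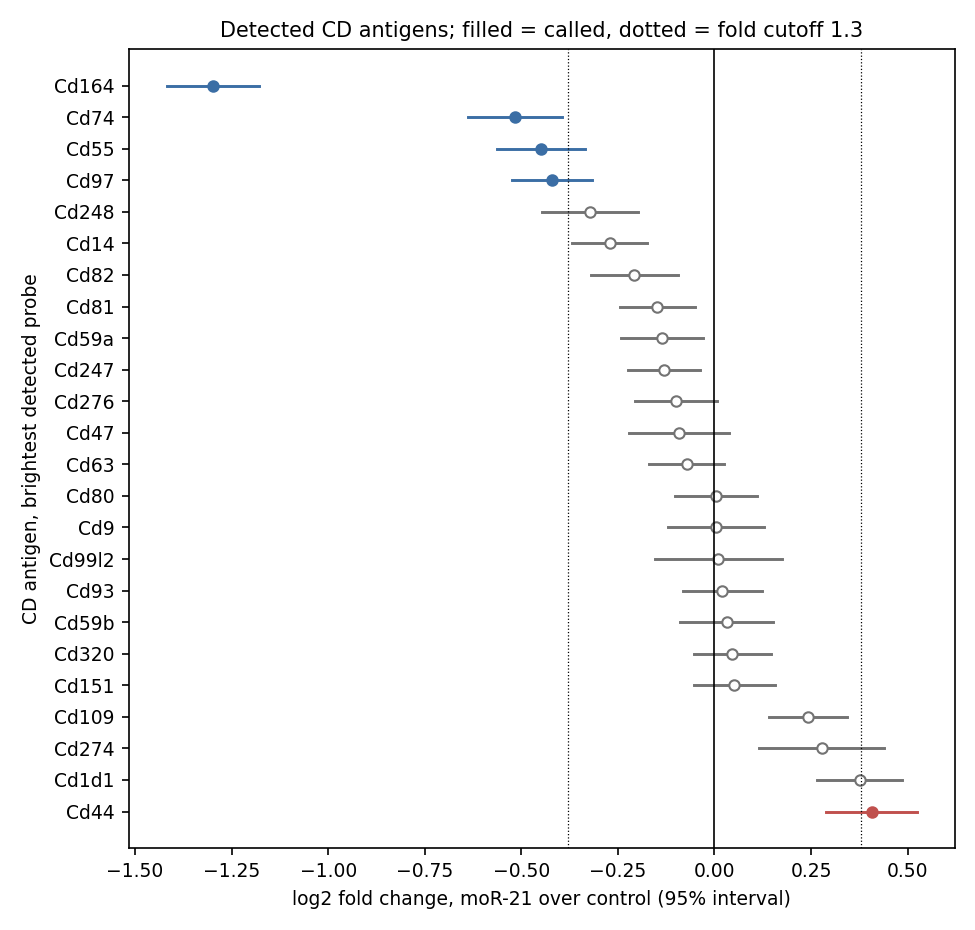
Log2 fold change of moR-21 over control (x axis) with its 95% interval for the 24 detected CD antigens (y axis), each at its brightest probe, with filled points for called genes and dotted lines at a fold change of 1.3. The interval of Cd164 lies apart from all others, and those of 19 antigens belong to genes that were not called.

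Several detected probes were available for 6 antigens, and they differed in call only for Cd97. The moR-21 samples lay below the control samples at each probe of Cd74 and of Cd97. For Cd109 and Cd151 no probe was called, and the groups overlapped at 1 of 2 and at 2 of 3 probes. The 3 probes of Cd63 had log2 fold changes of −0.07, 0.00 (−0.0014) and 0.21, from the brightest to the dimmest, and the groups were separate at the brightest (moR-21 below) and at the dimmest (moR-21 above) and overlapped at the other. The table assigns the dimmer pair of these probes to transcript variant 2 and gives no transcript for the brightest.

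**Figure D5:**
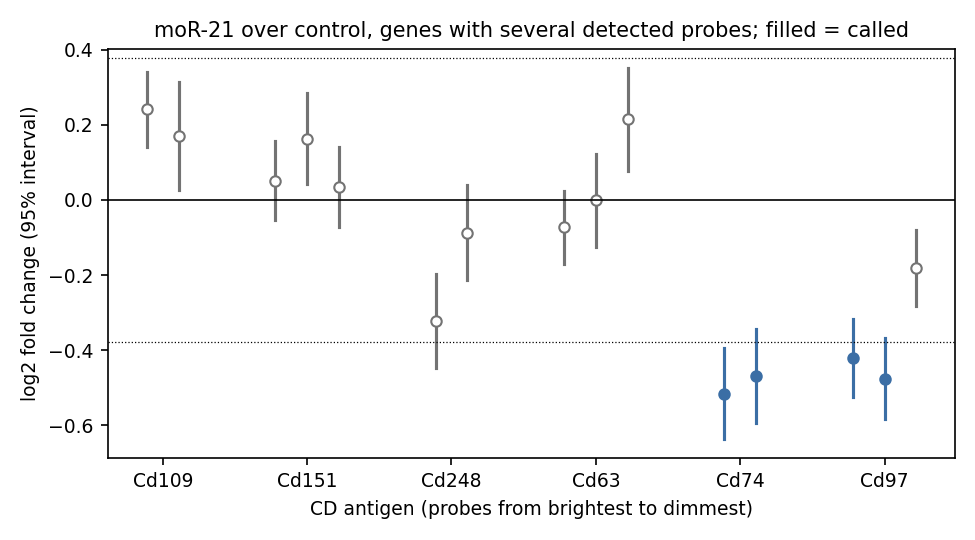
Log2 fold change of moR-21 over control with its 95% interval (y axis) at each detected probe of the 6 CD antigens with several detected probes (x axis), from the brightest to the dimmest, filled where called. Both Cd74 probes and the 2 brighter Cd97 probes were called lower, and the Cd63 probes lie on either side of 0.

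A fixed list of 56 symbols gave a part of the CD antigens that go by another name, and it is not complete. Of the 54 on the array 37 were tested, and limma called 3 lower and 2 higher, against 4.38% and 3.41% of all genes tested. Their median log2 fold change was −0.07. Prnp (the prion protein, CD230) fell by 0.86 (limma adjusted p = 1.15e-08), Bst2 (tetherin, CD317) by 0.69 (limma adjusted p = 1.39e-06) and Lamp2 (a lysosomal membrane protein, CD107b) by 0.66 (limma adjusted p = 1.39e-07). A second probe of Lamp2 also fell, and another pair, at −0.18 and −0.14, was not called. Tfrc (the transferrin receptor, CD71) rose by 0.74 (limma adjusted p = 2.13e-07), or by 1.398 with normexp, and Thy1 (CD90) rose by 0.53 (limma adjusted p = 2.85e-05). Lamp1, close in structure to Lamp2, had a log2 fold change of −0.32 and was not called, and Cxcr4, a receptor that Cd164 is known to associate with, was detected on no array.

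The identity of the cells was read from marker genes, since the labels call them smooth muscle cells in some fields and abbreviate them as AoECs in another. Of 10 smooth muscle markers on the array, Acta2, Cald1, Des, Smtn and Tpm2 were detected on all arrays and Lmod1 and Tagln on some, while Cnn1, Myh11 and Myocd were not detected. Tagln, detected on 4 arrays, had log2 signals of 6.73, 6.72 and 6.76 in the control samples and 6.98, 6.89 and 6.94 in the moR-21 samples. Its control signals were thus close to background, and its detection rested on the moR-21 arrays. It was not called (log2 fold change 0.20, limma adjusted p = 0.00367). Of 11 endothelial markers, Flt1 and Vwf were detected and 9 were not, among them Pecam1, Cdh5, Kdr and Tek. All 7 fibroblast markers were detected on at least 1 array, including Pdgfra, Dcn and Lum.

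Some markers moved with the treatment. Summed over the brightest probes of each list, the linear signal of the smooth muscle markers was between 10634 and 10992 in the control samples and between 13399 and 14267 in the moR-21 samples. Acta2, which made up most of it, was called higher at each of its 4 probes. The median log2 fold change of the list was 0.04, and Des, at −0.38 (limma adjusted p = 8.6e-05) and just short of the fold-change cutoff, was lower in all moR-21 samples. That of the fibroblast markers was between 18926 and 19322 in the control samples and between 15905 and 16852 in the moR-21 samples, with Lum and Col1a2 called lower. That of the 2 detected mesothelial markers was between 771 and 780 against 402 and 416. Of this pair, Upk3b was called lower (log2 fold change −1.24) and Krt19 was not called (−0.13). Krt8, Lrrn4 and Msln were not detected. The sums of the 2 detected endothelial markers overlapped (426 to 455 and 426 to 454), and so did those of the 4 detected macrophage and leukocyte marker symbols (1987 to 2046 and 1963 to 2048). The last list holds Cd14, its brightest member, which was lower without being called (−0.27), and Lyz and Lyz2, which were called higher (0.58 and 0.48). These lysozyme symbols were listed as alternative names of the same marker, so they do not count as separate markers. The part of these shifts in the changes of the CD antigens was not tested, and in such bulk samples fewer cells of a type cannot be told apart from less RNA per cell.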

How the data were processed

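RNA from 6 samples was measured on 8 Illumina arrays. The authors deposited non-normalized probe intensity values with, beside each, the deposited detection p-value. The methods name BeadStudio, quantile normalization, lumi and limma, and a background correction is not given in the sources used here. All columns of values matched a sample by name, and 0 were left over. Gene symbols are those of the table.

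Here quantile normalization was applied to the 8 arrays together, followed by log2 transformation and averaging of the arrays of 1 sample, and limma compared 3 moR-21 with 3 control samples without a covariate. It was fitted over 11651 probes, those that 1 array or more detected at p under 0.01. The Benjamini-Hochberg adjustment covered all of them. Each gene took the value of the brightest of its detected probes. The genes named are Cd164, members with a called probe, the 10 largest changes, members whose probes differ in call, and genes of fixed role and marker lists; the other detected members were added after their values were seen, so that all are accounted for. The members and lists were chosen with earlier results of these data known. The pipeline was tested on simulated data. Alternatives covered background correction, scaling, filters, repeat arrays, eBayes options, a replicate block, cutoffs and each sample left out. limma 3.58.1 ran in R 4.3.3, and figures were drawn with matplotlib 3.10.9 under Python 3.11.15.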

Additional observations from a re-analysis of the deposited data

How the results depend on the processing

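Cd164 was called lower under all 16 other settings, with log2 fold changes between −1.36 and −1.27, and between −1.35 and −1.27 with each sample left out. The CD antigen probes called lower numbered 6 or 7 under every setting but a fold change over 1.5, which left 1 lower and 0 higher. The number called higher was 1 and became 2, with Cd1d1, under normexp, array A alone and all 8 arrays with duplicateCorrelation, and lay between 1 and 2 with each sample left out. A fold change over 1.5 gave 174 lower and 86 higher probes over the whole table and 1 other CD antigen higher, and normexp gave 6 other CD antigens lower and 1 higher, without Thy1 (adjusted p = 0.00213). CD antigens detected on all 8 arrays numbered 20 at a detection p-value under 0.01 and 21 at one under 0.05. The replicate numbers were not shown to pair the samples, since the deviations of same-numbered samples correlated at 0.187, 0.0441 and 0.0597. With the replicate block 6 CD antigen probes were called lower and 1 higher, as without it, and 450 and 365 over the whole table.

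Of 604 values of single probes under other settings, 27 changed sign, all of probes that were not called. Under median scaling these were Cd63 (0.019), Cd80 (−0.0013) and Cd9 (−0.0060), and Cd9 under cyclic loess (−0.011). With array A alone it was Cd93 (−0.0063). With array B alone they were a Cd151 probe (−0.012), a Cd63 probe (0.030) and Cd9 (−0.0094). With duplicateCorrelation they were a Cd63 probe (0.035), Cd80 (−0.0055), Cd9 (−0.023) and Cd99l2 (−0.013). Some probes changed sign with a sample left out, and the ranges given here cover all such fits of each. They were −0.066 to 0.041 (Cd63, ILMN_3128907), −0.036 to 0.026 (Cd80), −0.034 to 0.066 (Cd9) and −0.10 to 0.068 (Cd99l2). The others were −0.0001 to 0.047 (Cd93), −0.0099 to 0.079 (Cd59b) and −0.0057 to 0.057 (Cd151, ILMN_2492403). Among called probes, Cd44 lost its call without control sample 3 (0.35) and Thy1 with normexp (0.57). Signal close to background limits the size given for the dim antigens.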
